A study of Mus musculus with 12 samples.

Results

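Lyve1 and Fcna positive macrophages of the newborn mouse meninges were described here across naive pups and pups that had undergone hypoxia-ischemia (HI). The cells were selected on their own counts of unique molecular identifiers (UMIs, tagged RNA molecules). A cell with 200 or more detected genes and at most 10% mitochondrial counts entered a macrophage gate when Mrc1, Cd163, F13a1, Cbr2 and Pf4 together gave 10 or more UMIs and more than Sparc, P2ry12, Tmem119 and Sall1 together. Within the gate, a member needed at least 2 UMIs of Lyve1, at least 1 of Fcna and 0 of Cd209f. These cutoffs found 10755 cells, which were 66.1% of the 16272 macrophages of the gate and 49.6% of the 21689 cells kept. The other 5517 macrophages of the gate comprised 3181 cells with a Cd209f UMI, called Cd209f positive here, and 2336 cells without one that missed the Lyve1 or the Fcna cutoff, called the remainder.

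Macrophages of the brain's borders lie in the meninges, in perivascular spaces and beside the choroid plexus, and differ from microglia, the macrophages of the parenchyma. In many tissues, macrophages that carry LYVE1, a receptor for the matrix sugar hyaluronan, lie along vessels, take up debris by scavenger receptors and carry little MHC class II. Ficolin A, the product of Fcna, is a secreted lectin that starts the lectin pathway of complement, and CD209f belongs to the DC-SIGN family of C-type lectins.

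All mice were C57Bl/6j pups at postnatal day 4. The HI group was collected 6 h after HI and the naive group received no HI. Each library came from brain meninges pooled from 12 mice, 6 males and 6 females, and each group had 2 single-cell 5′ RNA libraries, so n = 2 throughout. The remaining 8 of the 12 samples are B and T cell receptor libraries of the same 4 cell preparations. No sham-operated group is among the samples analysed here, so HI and the surgery and handling that go with it cannot be told apart. The cells were processed over 2 runs that each took a single library of either group. The labels do not say which libraries shared a run, so no value within a run can be given. The p-values below measure the spread between pooled libraries only. Values per library are given in the order naive 1, naive 2, HI 1, HI 2. A call lost without a library means that the test no longer passed when that library was left out; a library left alone in its group is then assumed to vary like the other group.

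The libraries held 4212 to 6410 kept cells and the members 2085 to 3513 of them. The members' total counts were 26213821 to 38385634 UMIs per library, with a median of 10296 to 11901.5 UMIs per cell, and their median mitochondrial share was 2.48% to 2.70%. Any 2 libraries shared 29 to 54 cell barcodes among all kept cells and 6 to 17 among the members. Median depth was lower in the other macrophages of the gate, at 9435 to 10492 UMIs. The remainder was the shallower of its classes, at 7644 to 8991 UMIs, and Cd209f positive cells stood at 10679 to 12121 UMIs.

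The genes that chose the members are given as a description, without a test. Lyve1 (chromosome 7, 110850607 to 110862953, GRCm38.p6) reached 2408, 2552, 2465 and 2527 CPM in the members, in counts-per-million units of the summed UMIs of a class in a library. Fcna (chromosome 2, 25624665 to 25635440) reached 1080, 1056, 1010 and 1224 CPM. A member held a median of 21 to 24 Lyve1 UMIs and 6 to 7 Fcna UMIs, so for Lyve1 most cells lay far above the cutoff. For Fcna, 19.0% to 23.0% of members had only 1 or 2 UMIs. In microglia of the same libraries, defined as cells with 10 or more UMIs of the 4 comparison genes and more of them than of the gate genes, 16% to 18.9% carried an Fcna UMI at 17.5 to 40.1 CPM. A single Fcna UMI therefore does not by itself separate a member from a microglial cell.

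Lyve1 and Fcna did not set the members apart from Cd209f positive macrophages. Cd209f (chromosome 8, 4102784 to 4105838) did, by construction. Of the Cd209f positive cells, 85.2%, 87.8%, 91.8% and 94.2% also met both the Lyve1 and the Fcna cutoff. Their Lyve1 level was 2416, 2556, 2590 and 2767 CPM, and their Fcna level 1138, 1193, 1171 and 1453 CPM. Over the whole gate, 88.2% to 93.8% of macrophages met the Lyve1 cutoff and 84.1% to 89.6% the Fcna cutoff. The name Lyve1 and Fcna positive thus fits most of the gate, and the members are the larger, Cd209f negative share of it.

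The other 3 markers given for these cells are also only described. Cd38, an ectoenzyme that consumes NAD, stood at 217, 184, 288 and 232 CPM in members and at 190, 177, 251 and 207 CPM in Cd209f positive cells. In the remainder it was 88.2, 79.9, 154 and 132 CPM, below the members in every library. Ednrb, the endothelin B receptor, stood at 739, 640, 604 and 532 CPM in members and at 356, 341, 292 and 283 CPM in the remainder. Stab1, a scavenger receptor of macrophages and sinusoidal endothelium, stood at 2060, 2109, 1743 and 1738 CPM in members and at 1588, 1654, 1256 and 1163 CPM in the remainder. All 3 were far lower in microglia, where Cd38 was 2.02 to 9.37 CPM, Ednrb 8.33 to 34.7 CPM and Stab1 227 to 328 CPM. After thinning each cell to 5000 UMIs, which left out 55 to 252 members per library, a Cd38 UMI was found in 49.6% to 62.6% of members and 0.952% to 2.75% of microglia. Without thinning, these shares were 67.1% to 78.8% and 1.37% to 5.87%, at median depths of 10296 to 11901.5 and 10958.5 to 12949 UMIs.

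**Figure D1:**
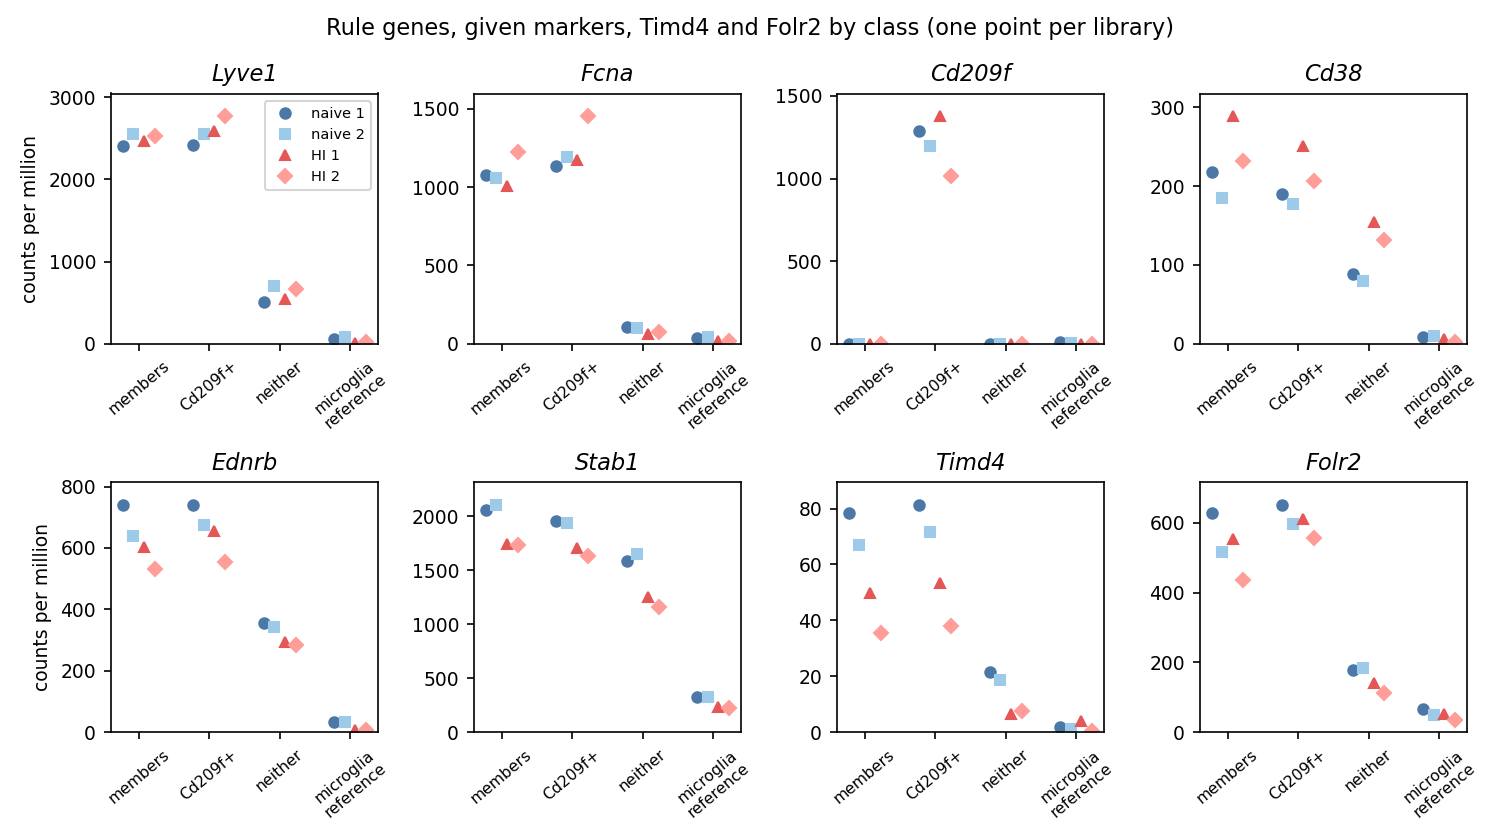
Expression in CPM (vertical axes, linear, starting at 0) of 8 genes in 4 classes of cells, 1 point per library. Lyve1, Fcna, Cd38, Ednrb and Timd4 were at like levels in members and Cd209f positive cells and lower in the remainder (labelled neither) and in microglia. Folr2 was lower in members than in Cd209f positive cells in 4 of 4 libraries (log2 difference -0.20, edgeR adjusted p = 0.00306), and Cd209f was at 0 in members because the rule required it.

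Cells just inside and just outside the rule are described without a test. The 43 to 80 members per library with exactly 2 Lyve1 UMIs had Stab1 at 1282 to 1721 CPM. The 46 to 73 cells just outside, with 1 Lyve1 UMI, had it at 1185 to 1548 CPM. Cd38 was at 169, 105, 198 and 152 CPM in the cells inside this edge and at 89.2, 60.6, 150 and 157 CPM in those outside, so it was lower outside in 3 of 4 libraries. At the other edge, the 262 to 351 members with a single Fcna UMI had Cd38 at 134 to 245 CPM, and the 220 to 314 cells with Lyve1 but no Fcna UMI at 114 to 193 CPM. At most 1 member per library had a gate sum below 15 UMIs, so the lower limit of the gate decided almost none of them.

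Members made up 58.7% of the gate in naive 1 (95% Clopper-Pearson interval 57.1% to 60.3%), 66.5% in naive 2 (65.1% to 67.9%), 66.0% in HI 1 (64.3% to 67.6%) and 71.4% in HI 2 (70.1% to 72.6%). These intervals cover counting error only. Naive 1 was lowest and HI 2 highest, while naive 2 and HI 1 overlapped. The naive mean was 62.6% ± 5.50 (SD, n = 2) and the HI mean 68.7% ± 3.82, a difference of 6.06 points. The two-sided exact permutation test gave p = 0.667, and with 2 libraries against 2 it cannot go below 0.33. Cd209f positive cells made up 21.6% ± 2.38 of the gate in naive and 18.0% ± 2.36 in HI libraries.

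**Figure D2:**
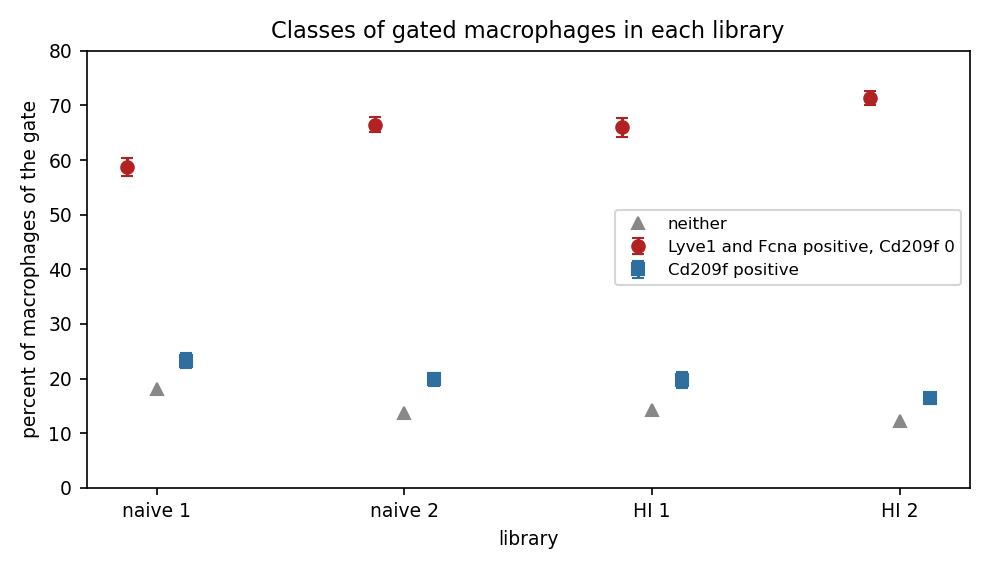
Share of the macrophages of the gate (vertical axis, percent) held by members, Cd209f positive cells and the remainder (neither), 1 point per library; bars are 95% Clopper-Pearson intervals, drawn for the first 2 classes. Member shares of 58.7% to 66.5% in naive and 66.0% to 71.4% in HI libraries overlap.

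Among cells that met the members' cutoffs after thinning, several other genes of this type of macrophage were higher where Lyve1 was higher. Macrophages of the gate were thinned to 5000 UMIs, and the Lyve1, Fcna and Cd209f cutoffs were applied to the thinned counts. This gave 1849, 2523, 1775 and 2979 cells. Some members drop out in this way, and Cd209f positive cells that lost their Cd209f UMIs can enter. Of Cd209f positive cells deep enough to thin, 85.5% to 89.0% kept a Cd209f UMI. The cells were divided into 4 bins of 2 to 5, 6 to 10, 11 to 15, and 16 or more Lyve1 UMIs, bins that were chosen after the values had been seen. The cells of a library share its depth and free RNA, so the bins are described without a test. Timd4, which encodes the phosphatidylserine receptor TIM-4 that tethers dying cells, went from 36.0, 36.6, 22.8 and 13.2 CPM in the lowest bin to 142, 105, 79.0 and 63.0 CPM in the top bin. Folr2, folate receptor beta, went from 431, 343, 376 and 260 to 882, 695, 734 and 618 CPM. Fcna stood at 647 to 765 CPM in the lowest bin and at 1548 to 1919 CPM in the top. Cd38 stood at 147 to 225 CPM in the lowest and 250 to 370 CPM in the top bin, and Stab1 at 1571 to 1916 and 1977 to 2402 CPM. All these genes were higher in the top bin in 4 of 4 libraries. Of them, Fcna is a rule gene and Cd38 and Stab1 are given markers. Apoe went from 18651, 16398, 17945 and 16598 CPM to 20276, 16921, 17765 and 16601 CPM. Ccl24 went from 644, 524, 625 and 415 CPM to 714, 564, 598 and 446 CPM. Both were lower in the top bin in HI 1 and higher there in the other libraries.

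Other genes ran the opposite way. Hmox1, heme oxygenase 1, went from 942, 844, 886 and 1488 CPM in the lowest Lyve1 bin to 469, 464, 562 and 572 CPM in the top bin. Cd74, the invariant chain of MHC class II, went from 198, 312, 178 and 156 CPM to 66.0, 47.0, 82.8 and 76.2 CPM. Mki67, a marker of cycling cells, stood at 39.7 to 54.2 CPM in the lowest bin and 9.76 to 19.4 CPM in the top. All 3 genes were lower in the top bin than in the lowest in 4 of 4 libraries.

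**Figure D3:**
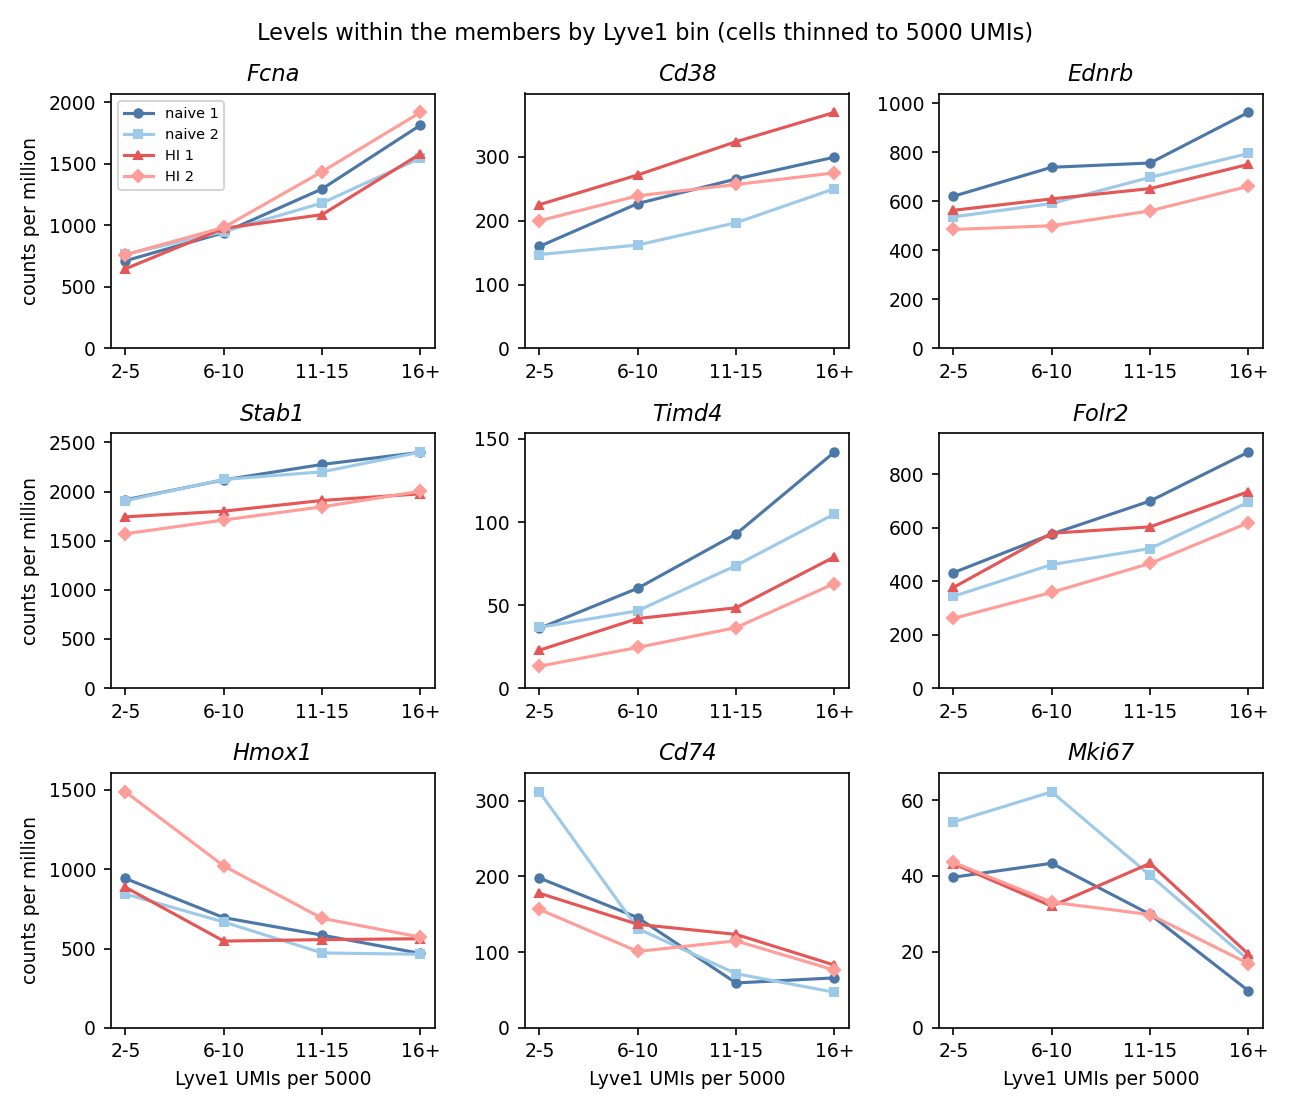
Expression in CPM (vertical axes) of genes in cells that met the members' cutoffs after thinning, binned by Lyve1 UMIs per 5000 UMIs (horizontal axis), 1 line per library. Timd4, Folr2, Fcna and Cd38 are higher in the top bin than in the lowest in every library, and Hmox1, Cd74 and Mki67 are lower.

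After HI, members gained RNA of hypoxia and glycolysis genes, endoplasmic reticulum chaperones, glucocorticoid-responsive genes and a set of chemokines, and lost RNA of neurons, glia and choroid plexus as well as some receptors of their own. With counts summed per library and tested by edgeR's quasi-likelihood test with Benjamini-Hochberg adjustment at 0.05, 382 of 12883 genes changed (2.97%). Of these, 235 rose (1.82%) and 147 fell (1.14%), and the median log2 change over all genes was 0.00073. At an unadjusted p under 0.05 the count was 2735. Called or not, both HI libraries lay beyond both naive libraries for 6831 of 12883 genes (53%). HI was higher for 3000 of them (23.3%) and lower for 3831 (29.7%), as shares of all genes tested. The number called moved with each library: it was 73 without naive 1, 95 without naive 2, 621 without HI 1 and 1281 without HI 2. In bulk sums such as these, fewer cells that carry an RNA and less RNA per cell cannot be told apart.

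Among genes averaging 10 CPM or more, those with the largest rises included several of matrix, adhesion and cell signalling. Vcam1, an adhesion molecule for leukocytes, was at 9.91, 14.4, 44.3 and 58.4 CPM, a log2 change of 2.09 ± 0.19 (SE; edgeR adjusted p = 0.00736). Lmna, which encodes the nuclear lamins A and C, was at 49.6, 55.7, 153 and 201 CPM (1.76 ± 0.14, edgeR adjusted p = 0.00448). Adam8, a surface metalloprotease, was at 6.65, 6.71, 22.7 and 27.0 CPM (1.92 ± 0.12, edgeR adjusted p = 0.00386). In each of these, both HI libraries lay well above both naive libraries, with HI 2 the higher. Spp1, osteopontin, was at 258, 214, 958 and 537 CPM (1.67 ± 0.24, edgeR adjusted p = 0.0220), here with HI 1 the higher. Gja1 (connexin 43, log2 change 1.66), Fgl2 (a secreted and membrane prothrombinase and immune regulator, 1.53), Rwdd2a (1.40) and Myc (a growth-promoting transcription factor, 1.21) also rose. Genes named by size of change were chosen to have no overlap between groups. Of 24 such genes, 12 in each direction, 24 were called without HI 1 and without HI 2, 14 without naive 1 and 15 without naive 2; Spp1, Fgl2 and Rwdd2a lost their call without either naive library.

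**Figure D4:**
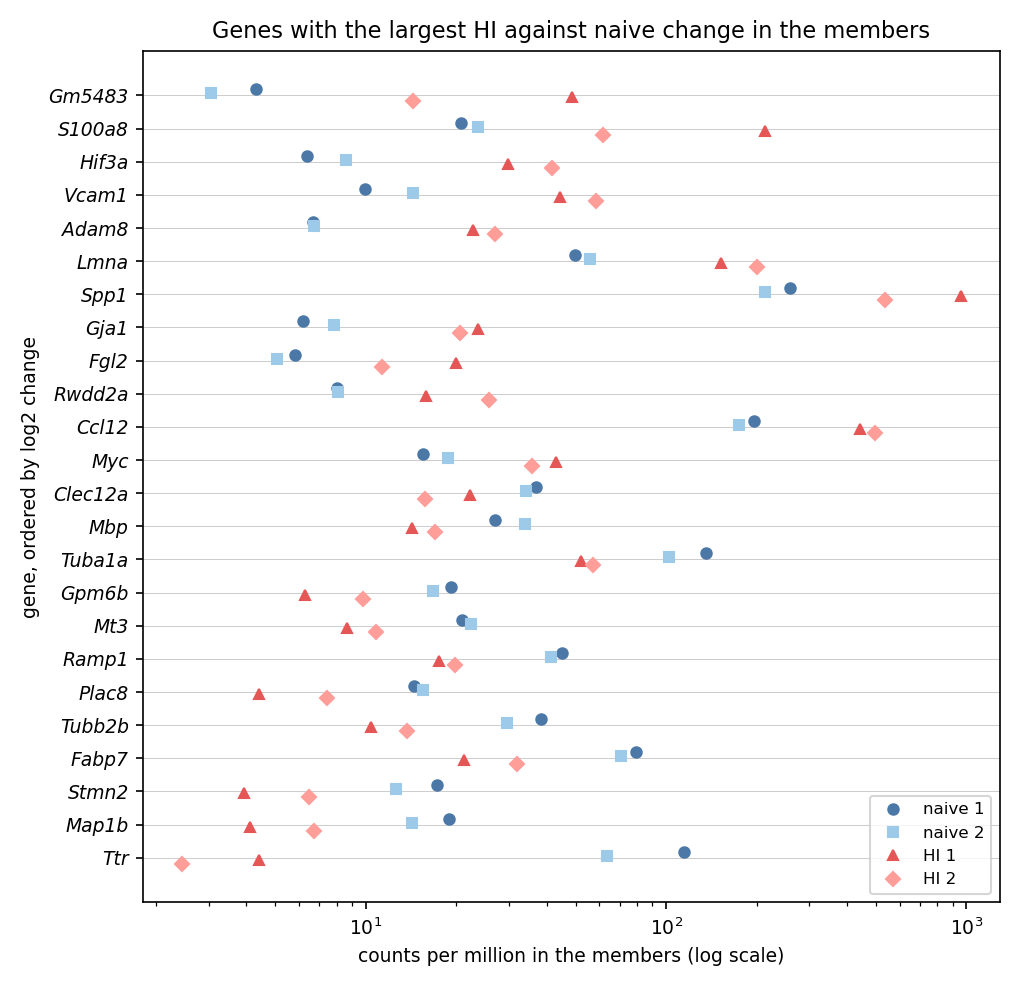
Expression in CPM in the members (horizontal axis, log scale) of the 12 genes with the largest rise and the 12 with the largest fall after HI among called genes averaging 10 CPM or more, ordered by log2 change, 1 symbol per library. The genes were chosen so that the HI libraries lie on one side of the naive libraries. They run from Gm5483 (3.05 to 4.31 against 14.4 to 48.7) to Ttr (63.4 to 114 against 2.45 to 4.43).

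Many hypoxia and glycolysis genes rose. Of 30 tested, 13 rose and none fell (edgeR), 23 had a log2 change above 0, and the list's median was 0.34 against 0.00073 for all genes. Egln3, an oxygen-sensing prolyl hydroxylase that HIF itself induces, was at 0.622, 0.662, 2.44 and 6.72 CPM (2.88 ± 0.52, edgeR adjusted p = 0.0412). Slc2a1, the glucose transporter GLUT1, was at 5.63, 6.56, 10.9 and 11.9 CPM (0.92 ± 0.13, edgeR adjusted p = 0.0226). Pgam1, a glycolytic mutase, was at 149, 153, 262 and 299 CPM (0.91 ± 0.08, edgeR adjusted p = 0.00627). All 3 were higher in both HI libraries. Changes were smaller for other glycolytic enzymes, at 0.64 for Pfkl, 0.57 for Pgk1, 0.53 for Pkm, 0.49 for Tpi1, 0.46 for Aldoa and 0.32 for Ldha. Pdk1, which diverts pyruvate from mitochondria, rose by 0.70, Bnip3, a mediator of mitophagy, by 0.49, and Ankrd37 and Higd1a by 0.79 and 0.51. Of the 13 genes, Pgam1, Pdk1 and Pfkl were called both without naive 1 and without naive 2, and the other 10 were not, with every log2 change still above 0.

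The promoters of these genes are shown because HIF binds a short core, ACGTG, which reads CACGT on the other strand. RefSeq promoter entries on GRCm38.p6 were searched over the 250 bases before the start on both strands, and a match is a description, not a binding site. The core was in 9 of the 13 genes that rose (69.2%), in 8 of the 15 tested and not called that had an entry (53.3%) and in 4998 of 27025 genes in the table (18.5%). Base composition was not matched between these sets. Windows with the core in capitals (overlapping copies run together) run 5′ to 3′ on the gene's strand, here chr4:119108689-119108733 (+), chr7:46845750-46845794 (+), chr19:41911737-41911781 (+), chr12:54204079-54204123 (-) and chrX:106186949-106186993 (+).
Slc2a1: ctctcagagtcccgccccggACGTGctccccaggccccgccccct
Ldha: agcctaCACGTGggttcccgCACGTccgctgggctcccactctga
Pgam1: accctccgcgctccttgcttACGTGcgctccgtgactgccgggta
Egln3: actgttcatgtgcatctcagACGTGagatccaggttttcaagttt
Pgk1: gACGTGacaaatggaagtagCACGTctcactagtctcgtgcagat

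Chaperones and other genes of the unfolded protein response rose in most cases. Of 18 tested, 12 rose, none fell (edgeR), and all 18 had a log2 change above 0, with a median of 0.39. Hspa5, the central chaperone BiP, was at 509, 558, 739 and 727 CPM (0.47 ± 0.06, edgeR adjusted p = 0.0177). Hyou1, an exchange factor of BiP, was at 29.3, 26.2, 46.2 and 43.6 CPM (0.71 ± 0.07, edgeR adjusted p = 0.00810). Sdf2l1, a component of the chaperone complex, was at 161, 178, 251 and 276 CPM (0.66 ± 0.08, edgeR adjusted p = 0.0134). The HI libraries lay above the naive ones in all 3. The disulfide isomerases Pdia4 (0.51), Pdia6 (0.48) and Pdia3 (0.33), the secreted factor Manf (0.47), Hsp90b1 (0.39) and the transcription factor Xbp1 (0.39) also rose. Ddit3 (CHOP), the factor tied to cell death under stress, was at 19.6, 19.2, 22.2 and 19.6 CPM (0.12 ± 0.08, edgeR adjusted p = 0.452), and Atf4 had a change of 0.08 ± 0.06 (edgeR adjusted p = 0.452). Without naive 1 only Hyou1 of the 12 genes was called, and without naive 2 Hyou1 and Sdf2l1, all 12 with the same sign.

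The ER stress response element, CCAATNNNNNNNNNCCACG (on the other strand it reads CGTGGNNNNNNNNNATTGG), was searched in the same way. A match is again a description, not a binding site. It lay within 250 bases of the start in 5 of the 10 risen genes with a promoter entry (50%), in Calr and Canx among the 6 not called, and in 35 of 27025 genes (0.130%). The element is in capitals in these windows on GRCm38.p6 at chr2:34772005-34772063 (+), chr12:17266471-17266529 (+), chr14:118937807-118937865 (+), chr15:88819500-88819558 (+) and chr10:86705513-86705571 (-), in the order below.
Hspa5: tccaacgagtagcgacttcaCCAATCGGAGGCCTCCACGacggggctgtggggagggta
Pdia6: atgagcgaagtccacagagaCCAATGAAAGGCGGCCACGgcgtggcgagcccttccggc
Dnajc3: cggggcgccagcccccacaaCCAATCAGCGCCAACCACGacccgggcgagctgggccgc
Creld2: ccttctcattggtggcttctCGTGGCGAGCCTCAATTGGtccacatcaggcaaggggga
Hsp90b1: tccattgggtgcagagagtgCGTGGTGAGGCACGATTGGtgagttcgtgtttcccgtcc

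Genes known to respond to glucocorticoids rose in part. Of 21 tested, 7 rose and none fell (edgeR), with a median log2 change of 0.78. Fkbp5, a co-chaperone that dampens the glucocorticoid receptor, was at 3.22, 4.00, 12.3 and 12.9 CPM (1.81 ± 0.14, edgeR adjusted p = 0.00448). Mt1, a metallothionein that binds zinc, was at 676, 615, 1268 and 1337 CPM (1.03 ± 0.07, edgeR adjusted p = 0.00386). Hif3a, a HIF family member, was at 6.36, 8.61, 29.8 and 41.6 CPM (2.27 ± 0.20, edgeR adjusted p = 0.00627). Naive and HI libraries did not overlap in any of these. Cd163, the hemoglobin scavenger receptor, was at 257, 258, 524 and 483 CPM, a log2 change of 0.98 ± 0.06. It is counted among the 7 but is also 1 of the 5 gate genes. Its UMIs helped choose these cells, so its change is a description. Tsc22d3 (GILZ), another classical target, was at 89.9, 105, 96.9 and 120 CPM (0.17 ± 0.12, edgeR adjusted p = 0.456). Mt2 rose by 1.14, and Il1r2 and Lcn2, the other risen genes, are also neutrophil products, beside which the levels of neutrophil RNA are given further on. Lcn2 lost its call without either naive library and Il1r2 without naive 1. With the cells ranked highest as doublets removed, Lcn2 fell below the filter on low counts and was not tested.

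Clock genes moved in both directions, 3 down and 2 up of 16 tested (edgeR). Nr1d1 (REV-ERB alpha), a repressor within the clock, was at 4.53, 3.97, 0.687 and 0.938 CPM, a log2 change of -2.33 ± 0.23 (edgeR adjusted p = 0.00739). Nr1d2 changed by -1.56 and Dbp, a clock output factor, by -0.84. Per2 rose by 1.02 and Cry1 by 1.00; both encode repressors of the clock's activators. The naive and HI libraries did not overlap in any of the 5 genes. The time of day at collection is not given in the sources used here. Per2 lost its call without either naive library and Dbp without naive 1.

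Among ligands of immune cells, 4 of 16 chemokines rose and none fell (edgeR), with a median of 0.47. Ccl12, a ligand of the monocyte receptor CCR2, was at 196, 175, 443 and 497 CPM (1.36 ± 0.09, edgeR adjusted p = 0.00386). Ccl8 was at 15.4, 17.4, 32.3 and 26.9 CPM (0.86 ± 0.10, edgeR adjusted p = 0.0126), and Ccl7 changed by 0.54 ± 0.10 (edgeR adjusted p = 0.0472). Ccl2, of the same cluster of genes, was at 191, 129, 197 and 172 CPM with overlapping groups (0.22 ± 0.17, edgeR adjusted p = 0.493). Cxcl2, a neutrophil attractant, was at 2.63, 2.96, 17.0 and 10.5 CPM (2.29 ± 0.24, edgeR adjusted p = 0.00854). Ccl8 lost its call without naive 1 and Ccl7 without naive 2 and under a looser rule for members. After thinning, Cxcl2 and Ccl7 were not called.

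Cytokine signalling changed in few genes. Of 19 NF-kB targets and cytokines, Tnf, Socs3 and Icam1 rose (edgeR). Socs3, the feedback inhibitor of STAT3 signalling, was at 2.85, 2.36, 14.2 and 18.0 CPM (2.66 ± 0.18, edgeR adjusted p = 0.00386). Tnf was at 11, 12.6, 20.2 and 19.5 CPM (0.76 ± 0.10, edgeR adjusted p = 0.0147). Il1b was at 2.56, 1.70, 12.0 and 3.39 CPM, with HI 1 far above the other libraries (1.84 ± 0.57, edgeR adjusted p = 0.128). Of 18 interferon-stimulated genes, Rsad2 (1.07) and Isg15 (0.37) rose. Icam1 and Isg15 lost their calls without either naive library, and Tnf without naive 1.

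Receptors and secreted proteins of innate defence shifted modestly. In the complement list 4 of 16 genes rose (edgeR), namely C1qa (4755, 4701, 5697 and 5871 CPM, log2 change 0.31), C1qb (0.38), the anaphylatoxin receptor C5ar1 (0.49) and properdin, Cfp (0.26). None of the 4 was called without naive 1 or without naive 2, though all stayed above 0. Among scavenger receptors, Msr1 was at 78.2, 75.2, 132 and 111 CPM (0.68 ± 0.08, edgeR adjusted p = 0.0123), a call lost without either naive library. Among lectins, Clec10a rose by 0.33 and Siglec1, a sialic acid receptor of macrophages, by 0.43, while Clec12a, an inhibitory receptor for uric acid crystals, was at 36.8, 34.2, 22.2 and 15.8 CPM and changed by -0.90. These lectin calls were lost without naive 1 and without naive 2. Timd4 was at 78.6, 66.9, 49.7 and 35.5 CPM and changed by -0.76 ± 0.15 (edgeR adjusted p = 0.0468), a call also lost without either naive library and under a looser and a stricter rule for members. Ramp1, the partner protein of the receptor for the neuropeptide CGRP, was at 44.9, 41.2, 17.6 and 19.8 CPM and changed by -1.18 ± 0.09 (edgeR adjusted p = 0.00448).

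In the matrix list 6 of 20 genes rose and none fell (edgeR), with a median of 0.34: Spp1, Adam8, Fn1 (fibronectin, 1.27), Mmp19 (0.68), the hyaluronan receptor Cd44 (0.42) and the neutrophil collagenase Mmp8, of which naive libraries held only traces. Of these 6, Adam8 and Fn1 were called without naive 1 and without naive 2, and Fn1 was not called under a looser rule for members. Mmp8 fell below the filter on low counts after thinning and with the highest ranked doublets removed, and Cd44 and Mmp19 were not called after thinning. Id2, an inhibitor of helix-loop-helix transcription factors, was at 24.8, 25.1, 39.4 and 54.0 CPM and rose by 0.93, a call lost without either naive library. Lists on which no gene passed included the cell cycle, with all 25 genes below 0 and a median of -0.28. There, 14 genes had an unadjusted edgeR p under 0.05 and DESeq2 called 1. For MHC class II, with 9 genes, and the lysosome, with 18, edgeR also called none. These lists had 5 and 7 genes at an unadjusted p under 0.05, and DESeq2 called 1 and 2.

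By edgeR, the given markers Cd38, Ednrb and Stab1 did not pass the test after HI in members, nor did Folr2. Cd38 changed by 0.39 ± 0.11 (edgeR adjusted p = 0.112), Ednrb by -0.26 ± 0.09 (edgeR adjusted p = 0.146), Stab1 by -0.24 ± 0.05 (edgeR adjusted p = 0.0666) and Folr2 by -0.20 ± 0.12 (edgeR adjusted p = 0.421). Their groups of libraries overlapped for Folr2 and did not for the other 3. Those 3 had an unadjusted edgeR p under 0.05, and DESeq2 called 2 of them, Cd38 (adjusted p = 0.00848) and Stab1 (adjusted p = 0.00688). The rule genes were examined in all macrophages of the gate, where Lyve1, Fcna and Cd209f were not used to choose cells. In that test 431 of 13619 genes changed (3.16%), 268 of them up (1.97%) and 163 down (1.2%). Lyve1 changed by 0.07 (edgeR adjusted p = 0.606), Fcna by 0.13 (edgeR adjusted p = 0.527) and Cd209f by -0.25 (edgeR adjusted p = 0.536). Of the 15 rule and marker genes, 3 rose: Cd163 by 0.96 (268, 266, 530 and 492 CPM), F13a1, the A chain of coagulation factor XIII, by 0.56 (2061, 2251, 3090 and 3193 CPM) and Cbr2, a carbonyl reductase, by 0.35. All 3 are gate genes, whose UMIs also chose the cells of this test, so their changes are a description. Neither naive library could be left out without losing these calls. Without naive 1 edgeR called 0 of the 15, with 5 at an unadjusted p under 0.05, and without naive 2 it called 0, with 8; DESeq2 on all libraries called 6.

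Several of the largest changes were in genes of other cells. Ttr, transthyretin, the main secretory product of choroid plexus, was at 114, 63.4, 4.43 and 2.45 CPM and changed by -4.73 ± 0.36 (edgeR adjusted p = 0.00448). The neuronal and glial genes Map1b, Stmn2, Fabp7, Tubb2b, Mt3, Gpm6b, Tuba1a and Mbp changed by -1.57 to -0.94. Gpm6b lost its call without either naive library, Map1b and Stmn2 without naive 1 and Mbp without naive 2. Over the 9 markers of neurons and glia, the summed level in members was 213 to 275 CPM in naive and 84.0 to 109 CPM in HI libraries. Over 7 choroid plexus markers it was 76.9 to 131 CPM against 19.1 to 21.2 CPM. Neutrophil markers went the other way. Gm5483, a predicted gene, rose by 3.10 (4.31, 3.05, 48.7 and 14.4 CPM) and S100a8, a calcium-binding protein abundant in neutrophils, by 2.62 (20.8, 23.6, 213 and 61.7 CPM). The 8 neutrophil markers summed to 46.9 to 55.1 CPM in naive members and to 137 to 580 CPM in HI members, with HI 1 the highest. Calls for Gm5483 and S100a8 were lost when the cells ranked highest as doublets were removed (edgeR adjusted p = 0.275 and 0.288), as was that for Plac8, a monocyte gene that changed by -1.29 (edgeR adjusted p = 0.579). These 3 calls were also lost without either naive library.

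Summed markers of most remaining types moved less. Monocyte markers (7 genes) summed to 23.4 to 25.6 CPM in naive and 14.2 to 22.2 CPM in HI members, and microglial markers (10 genes) to 1370 to 1460 against 1219 to 1220 CPM. In the monocyte sums, Chil3 gave 12.1 CPM of the 22.2 CPM in HI 1. It was at 0.0366, 0.0576 and 0.287 CPM in naive 1, naive 2 and HI 2. Lymphocyte markers summed to 80.8 to 81.5 against 73.5 to 85.6 CPM, endothelial markers to 13.9 to 14.5 against 14.1 to 14.3 CPM, and fibroblast markers to 14.5 to 14.6 against 14.3 to 15.2 CPM. Cd79b alone gave 72.0, 76.1, 70.8 and 76.8 CPM of the lymphocyte sums, and Prox1 8.73 to 10.1 CPM of the endothelial sums. These 2 sums therefore say little of the other markers. Cd79a, for example, was at 2.78, 2.68, 0.191 and 6.90 CPM. Mural cell markers summed to 0.576 to 0.804 against 0.381 to 0.834 CPM and red cell markers to 0.366 to 0.374 against 0.305 to 4.12 CPM. The red cell sum was 0.305 CPM in HI 1 and 4.12 CPM in HI 2. No marker on any of these lists was at 0 over all members. The part of these RNAs in the changes above was not tested.

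Against the other macrophages of their gate, members were richer in lysosomal genes and poorer in monocyte, MHC class II and immediate-early genes. Against Cd209f positive cells alone, of 9 MHC class II genes 1 was higher in members and 0 were lower (edgeR). Of 18 immediate-early genes 0 were higher there and 1 was lower. With the library as a block, 895 of 12364 genes differed (7.24%), 357 higher in members (2.89%) and 538 lower (4.35%). The count was 563 without naive 1 and 565 without naive 2. Both groups come from cells divided by 3 genes of the same cells, so rule genes and given markers were left out of these counts and the test speaks only of other genes. Timd4 was at 78.6, 66.9, 49.7 and 35.5 CPM in members and at 59.0, 53.5, 36.5 and 27.1 CPM in the others (log2 difference 0.39 ± 0.03, edgeR adjusted p = 1.16e-05). Folr2 was higher by 0.27 and Crybb1, a gene shared with microglia, by 0.44, each in 4 of 4 libraries. Of 18 lysosomal genes 10 were higher and 2 lower, with small differences such as 0.17 for Grn (progranulin), 0.15 for Ctsd (cathepsin D) and 0.15 for Cd68. After each cell was thinned to 5000 UMIs, 7 of these 12 genes were called. Of 16 complement genes 6 were higher and 2 lower, with 5 of the 8 called without naive 1 and 5 without naive 2, and Apoe, the lipid carrier, was higher by 0.14.

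Lower genes differed by far more. Ccr2, the receptor by which monocytes enter tissue, was at 3.47, 4.89, 2.06 and 3.62 CPM in members and at 45.1, 27.0, 50.4 and 74.2 CPM in the others (-3.75 ± 0.21, edgeR adjusted p = 3.34e-07). Among the others, Cd209f positive cells had it at 3.89, 9.14, 2.50 and 2.89 CPM and the remainder at 114, 61.5, 136 and 200 CPM. Ly6c2 differed by -4.82, Thbs1 (thrombospondin 1) by -3.48, Fn1 by -2.92 and Lgals3 (galectin 3) by -1.99. Of 9 MHC class II genes 5 were lower and none higher, led by H2-Eb1 (-1.43) and H2-Aa (-1.39). An H2-Aa UMI was found in only 0.342% to 0.770% of members and 0.929% to 1.31% of the others, so its difference rests on few cells. Cd74 was at 145, 189, 156 and 140 CPM in members and at 306, 339, 247 and 247 CPM in the others (-0.85 ± 0.05, edgeR adjusted p = 2.88e-07). Cd209f positive cells had it at 205, 262, 114 and 113 CPM and the remainder at 474, 486, 487 and 484 CPM. A Cd74 UMI was found in 43.6%, 37.7%, 53.3% and 43.8% of members and in 46.3%, 36.7%, 51.4% and 47.0% of the others. Of 18 immediate-early genes 11 were lower and 1 higher, Fos by -0.60, and of 20 matrix genes 8 were lower, of which 4 were called after thinning. The 7 monocyte markers summed to 14.2 to 25.6 CPM in members, 18.2 to 51.2 CPM in Cd209f positive cells and 244 to 585 CPM in the remainder. Neutrophil markers summed to 1774 to 2629 CPM in the remainder of the HI libraries. The part of cells rich in these RNAs in the differences was not tested.

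The closer comparison was with Cd209f positive macrophages, which share Lyve1, Fcna, Cd38, Ednrb and Timd4 at like levels. Members had more Spp1, Ramp1, Trem2 and lysosomal RNA and less of several lectins, Mmp9 and Ccl24. Of 12076 genes, 515 differed (4.26%), 256 higher in members (2.12%) and 259 lower (2.14%), and 275 were called without naive 2. Spp1 was at 258, 214, 958 and 537 CPM in members and at 201, 110, 523 and 181 CPM in Cd209f positive cells (0.92 ± 0.12, edgeR adjusted p = 0.000267). Members were higher in every library. Ramp1 (0.69), Pmepa1 (an inhibitor of TGF-beta signalling, 0.93), the inhibitory collagen receptor Lair1 (0.79) and the lipid receptor Trem2 (0.31) were also higher. Of 18 lysosomal genes 9 were higher and none lower, such as Ctss (0.20) and Ctsd (0.19). Of 25 cell cycle genes 11 were higher and none lower, among them Ccnb2 (0.56) and Top2a (0.22), but 5 of the 11 were called without naive 2. Microglial markers (10 genes, 4 of them used by the gate) summed to 1219 to 1460 CPM in members and 881 to 1243 CPM in Cd209f positive cells, lower in Cd209f positive cells of every library; their part in the difference was not tested.

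Of 16 lectins, 8 were lower in members and 1 higher. Of the 8, 4 are paralogs of the rule gene Cd209f, whose counts are uncertain. Among the 11 lectins that are not such paralogs, Clec10a, Mgl2, Clec4a1 and Siglec1 were lower and Clec12a higher. Clec10a, which binds N-acetylgalactosamine, was at 208, 205, 264 and 249 CPM in members and at 302, 305, 359 and 360 CPM in Cd209f positive cells (-0.54 ± 0.02, edgeR adjusted p = 1.58e-08). Its paralog Mgl2 differed by -0.48. Mmp9, gelatinase B, was at 25.5, 30.4, 31.2 and 38.3 CPM against 49.4, 62.5, 52.9 and 82.0 CPM (-1.0 ± 0.05, edgeR adjusted p = 2.89e-08). Ccl24, an eosinophil attractant, differed by -0.33, Ptgds (prostaglandin D synthase) by -0.69, Enpp2 (autotaxin) by -0.55 and Igf1 by -0.20. Members were lower than Cd209f positive cells in all 4 libraries for each of these genes. Cd209g and Cd209b were lower by far more, at -7.28 and -4.30, and are among these paralogs. Timd4 was at 81.4, 71.5, 53.3 and 38.2 CPM in Cd209f positive cells (-0.10 ± 0.03, edgeR adjusted p = 0.134). Hypoxia and chaperone genes were not called in either direction (edgeR and DESeq2, 0 of 30 and 0 of 18), and each list had 3 genes at an unadjusted edgeR p under 0.05.

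The response to HI was then compared between members and the other macrophages of the gate by an interaction term. It differed for 25 of 12904 genes (0.194%), 10 in the higher direction (0.0775%) and 15 in the lower (0.116%). The count was 13 without naive 1, 92 without HI 1 and 142 without HI 2, and 7 with the cells ranked highest as doublets removed. None of the 31 hypoxia genes and none of the 18 chaperone genes was among the 25 (edgeR and DESeq2), and 2 and 0 of them had an unadjusted edgeR p under 0.05. Of the 13 differing genes named here, 8 had the lower change in members. With those doublets removed, Cxcl2, Plac8, Tmsb10 and Gpnmb were called and the other 9 were not. Cxcl2 was at 2.63, 2.96, 17.0 and 10.5 CPM in members and at 1.24, 0.582, 47.7 and 38.1 CPM in the others, and its log2 change was 2.29 in members and 5.52 in the others. This difference of -3.26 was -1.58 under a stricter rule for members, with edgeR adjusted p = 0.441. Plac8 was at 49.9, 60.9, 51.1 and 102 CPM in the others, and changed by -1.29 in members against 0.50 there. S100a11, S100a6, Ifitm6, Napsa and Il1b likewise had a lower change in members. Tmsb10, thymosin beta 10, was at 333, 317, 177 and 218 CPM in members and at 468, 441, 408 and 444 CPM in the others, so that members changed by -0.70 (edgeR adjusted p = 0.0248) and the others by -0.08.

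The opposite held for Gpnmb, Lpl and Ptgds. Lpl, lipoprotein lipase, was at 59.6, 48.0, 179 and 32.6 CPM in members and at 107, 76.0, 156 and 40.4 CPM in the others. Naive and HI libraries overlapped within each class, and the difference between classes was lost without either naive library. Gpnmb, a lysosomal glycoprotein, was at 10.8, 2.36, 18.9 and 5.78 CPM in members and at 41.9, 12.2, 22.0 and 5.74 CPM in the others. Its naive and HI libraries also overlapped within each class. Over the other macrophages, neutrophil markers summed to 102 to 111 CPM in naive and 766 to 1225 CPM in HI libraries, and monocyte markers to 117 to 125 and 153 to 225 CPM. Their part in the differences was not tested.

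**Figure D5:**
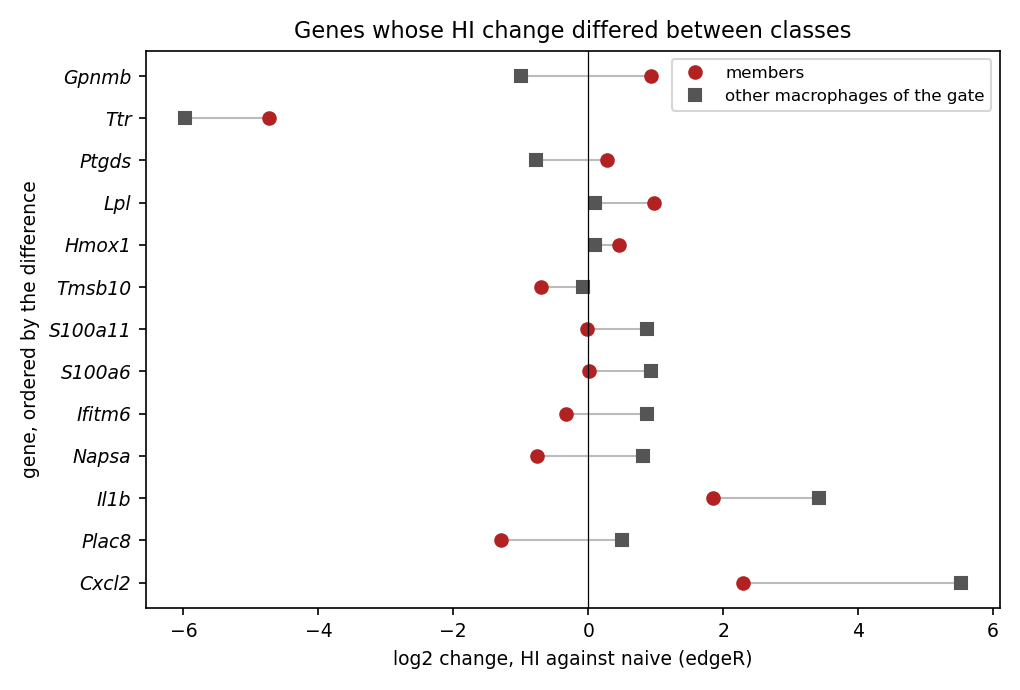
Log2 change after HI (horizontal axis, edgeR) in members and in the other macrophages of the gate for 13 genes whose change differed between them. The other macrophages are farther to the right for Cxcl2 (5.52 against 2.29), Il1b (3.42 against 1.84) and Plac8 (0.50 against -1.29), and members for Gpnmb (0.92 against -1.0).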

How the data were processed

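Count matrices of 4 single-cell 5′ RNA libraries of meningeal cells were analysed. Per the submitters' processing notes, the deposited UMI counts came from Cell Ranger 2.2.0 and Seurat 3.027 with the mm10 build (GRCm38), and the authors deposited them as whole counts that are not normalized. Contig lists from 8 receptor libraries were used only for counts of cells with a contig. Symbols were taken from the files, and 4 of 454 listed genes had no row of their own and were not analysed here.

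Cells were kept at 200 or more genes and at most 10% mitochondrial counts, and members were found by the rule given above. The members and gene lists were chosen with earlier results of these data known. Counts were summed per library and class and tested with edgeR 4.0.16 (filterByExpr, TMM, quasi-likelihood test, adjusted p at 0.05); comparisons of classes had the library as a block, and the HI response was compared by an interaction. DESeq2 1.42.0 was an alternative, as were other normalization, filters, looser and stricter rules, thinning to 5000 UMIs, removal of cells and each library in turn. Doublets were ranked with Scrublet in scanpy 1.11.5 and 0.8% per 1000 barcodes was removed in 1 alternative; they were kept otherwise.

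Genes named by size are up to 12 each way among called genes at 10 CPM or more on average, with HI libraries beyond naive ones or, between classes, the same direction in 4 of 4 libraries, and up to 8 each way in the interaction; others come from the lists. Counts were also simulated from a common mean profile, the real library totals and edgeR's own dispersion estimates, without library or class effects. Only genes above a minimum mean count were changed, so recovery of genes with low counts was not measured. On these simulated counts edgeR was run for HI in members, members against others, members against Cd209f positive cells and the interaction. In that order, it recovered 93%, 99%, 98% and 89% of genes changed by 1 on the log2 scale. Of those changed by 0.5 it recovered 57%, 92%, 81% and 56%. Of its calls, 9.64%, 5.45%, 7.73% and 7.64% were false, each share above the cutoff set for the adjusted p. Promoters are RefSeq entries on GRCm38.p6. Results for 2 genes are not reported here.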

Additional observations from a re-analysis of the deposited data

Results flagged for a closer look

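The response to HI differed between members and the other macrophages of the gate, by the interaction term of edgeR, for 13 genes that met the expression limit. Values are log2 change in members minus that in the others. The difference was -3.26 for Cxcl2, -1.81 for Plac8, -1.64 for Il1b, -1.57 for Napsa, -1.20 for Ifitm6, -0.91 for S100a6, -0.89 for S100a11 and -0.63 for Tmsb10. It was 0.40 for Hmox1, 0.76 for Lpl, 1.05 for Ptgds, 1.32 for Ttr and 1.92 for Gpnmb. For Plac8, Napsa, Ifitm6, S100a11, Gpnmb and Ptgds the 2 classes had changes of opposite sign. For Gpnmb, naive and HI libraries overlapped within each class. Without either naive library the calls for Lpl, Hmox1, Il1b and S100a6 were lost, as were those for Ptgds and Ifitm6 without naive 1 and for S100a11 without naive 2. With the cells ranked highest as doublets removed, 9 of the 13 calls were lost, those for Ttr, Ptgds, Lpl, Hmox1, Il1b, Napsa, Ifitm6, S100a6 and S100a11. Under a stricter rule for members, those for Ttr, Lpl, Hmox1, Il1b and Cxcl2 were lost, Cxcl2 at -1.58. DESeq2 did not call Ptgds, Lpl, Hmox1, S100a6 or S100a11. Monocyte markers summed to 14.2 to 25.6 CPM in members and 117 to 225 CPM in the other macrophages, and neutrophil markers to 137 to 580 and 766 to 1225 CPM after HI; their part in these differences was not tested.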

How the results depend on the processing

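The HI count in members, 382, was 582 by DESeq2 and 1758 without a filter on low counts, and ranged from 73 to 1281 with a library left out. The 895 genes that differed from other macrophages were 428 by DESeq2, 1451 without a filter, 1345 under the stricter rule, 563 to 778 with a library left out and 54 without the library as a block. The 515 that differed from Cd209f positive cells were 267 by DESeq2, 887 without a filter, 275 to 491 with a library left out and 5 without that block. The 25 genes of the interaction were 11 by DESeq2, 136 without a filter, 50 after thinning, 7 with ranked doublets removed and 13 to 142 with a library left out. In the gate, 3 rule genes became 6 by DESeq2 and 0 to 5 with a library left out. The member share differed by 2.16 to 9.95 points with a library left out. Plac8 reversed to 0.30 against Cd209f positive cells without ranked doublets, and Hmox1 to -0.070 in the interaction after thinning; the cause was not tested. Of the genes named by size of change, no other changed sign where it was tested under the alternatives run. Among called genes of the lists, Mmp9 and Bst2 changed sign after thinning against the other macrophages. The labels do not tie replicate numbers to runs, and deviations of same-numbered libraries correlated at 0.277 over 7663 genes, so the pairing is not established. With the replicate number as a block, the HI count was 1928, the interaction 114, the rule genes 9 and the share difference 6.06 points.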

Other observations

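Receptor contigs were matched to the members by cell barcode. A B cell receptor contig, productive or not, was listed for 180, 124, 78 and 48 members in naive 1, naive 2, HI 1 and HI 2, or 8.29%, 4.15%, 3.74% and 1.37% of them. Among all kept cells, such a contig was listed for 822 of 5122, 605 of 5945, 375 of 4212 and 438 of 6410. A productive B cell receptor contig was listed for 2, 4, 0 and 7 members. In the other macrophages of the gate it was listed for 1, 3, 1 and 3 cells (0.0655%, 0.199%, 0.0929% and 0.213%). T cell receptor contigs were listed for 3, 3, 2 and 3 members, of which 0, 1, 2 and 0 were productive.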
